A study of Mus musculus with 10 samples.

Results

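The genes described here are those that flank *Lmx1a* on mouse chromosome 1. *Lmx1a* lies on the plus strand of GRCm38 at chr1:167689237-167848741, and the interval of 10 Mb on either side runs from 157689237 to 177848741. The GENCODE M21 annotation places 497 genes in it other than *Lmx1a*, of which 468 are in the deposited count table and 222 had at least 10 counts in at least 3 libraries. These 222 genes are the members, out of 21664 genes that passed the same filter in the whole table. They comprise 139 protein-coding genes, 39 TEC models (transcripts to be experimentally checked), 15 antisense genes, 8 processed pseudogenes, 6 processed transcripts, 5 lincRNAs and 10 of other kinds. The rule used position and counts over all libraries, not the difference between genotypes.

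RNA was sequenced from the cortical hem (CH) at e13.5, with 1 library per embryo, in 5 wild-type and 5 *Lmx1a-/-* embryos. The mutants were homozygous for the drJ (dreherJ) allele of *Lmx1a*, and both genotypes were kept on a mixed background of C57Bl6, FVB and CD1. Embryos of either sex were used. The CH was cut from frozen head sections by laser capture, and the sections of an embryo were pooled, so a library holds the mean of all cells that were cut.

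The CH is the medial edge of the developing telencephalon. It secretes Wnt and Bmp proteins that pattern the hippocampus, and it gives rise to Cajal-Retzius (CR) cells. *Lmx1a* encodes a LIM-homeodomain transcription factor made in the CH and the choroid plexus. A mutant allele is inherited together with the DNA around it, since recombination seldom separates close loci, so embryos homozygous for an allele also tend to share the flanking chromosome of its founder. On a mixed background the flanking copies of wild-type embryos can differ from it. A difference in a neighbour of *Lmx1a* can thus accompany the loss of the protein or the linked DNA, and with these 2 groups the 2 cannot be told apart. Sequence variants of the embryos were not analysed here.

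Libraries held 19145952 to 36462780 counts, 20.6% to 27.6% of them on mitochondrial genes. The 468 interval genes in the count table took 0.728% to 0.762% of the counts of a wild-type library. In a *Lmx1a-/-* library they took 0.765% to 0.811%, so that every mutant library lay above every wild-type library. The totals include the mitochondrial counts, whose share varied, and no other interval was compared. Of 8 CH markers that were tested, 3 were lower and *Lmx1a* itself was higher in *Lmx1a-/-* CH, and their summed level was 1565 to 2936 and 1996 to 2378 normalized CPM (counts relative to library size, scaled by TMM). The sum over 11 choroid plexus epithelium markers was 142.6 to 497.3 CPM in wild-type CH, lowest in embryo 3, and 158.7 to 237.2 CPM in *Lmx1a-/-* CH. Of the 11, 3 were lower in *Lmx1a-/-* CH (*Ttr*, *Car12* and *Calml4*) and 0 were higher, with a median log2 fold change of -1.15. *Otx2*, which did not pass, had the highest level of these epithelium markers in every mutant library, at 80.3 to 134.8 CPM. *Ttr*, the transthyretin gene that marks this epithelium, was at 124, 164, 5.74, 21.3 and 77.2 CPM in wild-type embryos 1 to 5 and between 1.14 and 15.1 CPM in mutants. *Xist*, which the inactive X chromosome transcribes, was at 4399 to 5169 CPM in wild-type embryos 2 to 5, at 1.01 CPM in wild-type embryo 1 and at 0.163 to 1.15 CPM in the 5 mutants. Genotype is thus nearly tied to the presence of *Xist* in these libraries. Of 9 marker lists, those of CR cells and of red cells did not overlap between genotypes in their summed level. The 5 CR markers that were tested summed to 260.6 to 444.3 CPM in wild-type and 170.7 to 249.4 CPM in *Lmx1a-/-* CH, with *Reln*, *Trp73* and *Lhx1* lower and *Lhx5* higher. The 4 red cell markers, none of which passed, summed to 494.6 to 1240 and 186.2 to 467.7 CPM. The part of these cells in the results for the members was not tested, and no marker list was at 0 in any group.

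*Lmx1a* itself was at 79.8, 80.0, 45.6, 59.7 and 90.8 CPM in wild-type embryos 1 to 5 and at 89.9, 101.8, 122, 145 and 111 CPM in mutants. Its RNA was higher in *Lmx1a-/-* CH, by 0.68 in log2 units with an SE of 0.17 (FDR = 0.0658 by edgeR quasi-likelihood), though wild-type embryo 5 overlapped mutant embryo 1. It passed in 6 of the 10 fits that left out an embryo, and missed the threshold without wild-type embryo 1 or 4 or mutant embryo 4 or 5 (FDR up to 0.157). Gene counts do not tell the alleles apart, so the transcript of *Lmx1a* does not check the genotype labels.

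Promoter windows of RefSeq (GRCm38.p6), which span a transcript start and lie mostly upstream of it, were at hand for 128 members and for 11 of the 13 members that differed between genotypes. The windows of *Ddr2* and *Nos1ap*, neighbours that both fell, and of *Pappa2*, the gene with the smallest p among those that rose, are given, since these genes passed in every fit that left out an embryo. Capitals mark ATTA or its reverse complement TAAT, the core that many homeodomain proteins bind. The windows lie on the minus strand at chr1:170088895-170089194 for *Ddr2*, chr1:170589800-170590099 for *Nos1ap* and chr1:158958126-158958425 for *Pappa2*.
Ddr2: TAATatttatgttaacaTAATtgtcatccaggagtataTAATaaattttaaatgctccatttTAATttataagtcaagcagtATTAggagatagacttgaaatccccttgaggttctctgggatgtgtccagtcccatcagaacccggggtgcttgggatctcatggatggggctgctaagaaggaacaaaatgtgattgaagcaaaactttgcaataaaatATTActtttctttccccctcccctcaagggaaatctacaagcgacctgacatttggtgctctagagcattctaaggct
Nos1ap: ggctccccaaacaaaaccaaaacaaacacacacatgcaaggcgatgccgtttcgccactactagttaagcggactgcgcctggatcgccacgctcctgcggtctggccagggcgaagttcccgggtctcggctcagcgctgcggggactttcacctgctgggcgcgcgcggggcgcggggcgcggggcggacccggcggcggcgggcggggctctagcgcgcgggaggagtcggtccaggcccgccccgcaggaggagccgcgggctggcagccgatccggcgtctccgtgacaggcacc
Pappa2: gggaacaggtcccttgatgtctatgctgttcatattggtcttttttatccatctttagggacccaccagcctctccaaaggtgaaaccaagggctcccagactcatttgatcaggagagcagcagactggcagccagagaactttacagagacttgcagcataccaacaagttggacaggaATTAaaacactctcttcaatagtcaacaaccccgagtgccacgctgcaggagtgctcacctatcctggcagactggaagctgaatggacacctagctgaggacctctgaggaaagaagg
The core occurs 6 times in the *Ddr2* window, which is 39.0% G and C, once in that of *Pappa2* (49.7%) and at no place in that of *Nos1ap* (71.7%). A further window of *Nos1ap*, at chr1:170557061-170557360, is not printed and does not hold the core either. For *Ddr2* and *Pappa2* the RefSeq start lies inside the gene model of GENCODE, which begins farther upstream. Searched on both strands with overlaps allowed, ATTA was in 83 of 157 member windows (52.9%) and in 58.0% of the 32851 windows of all genes. It was in 7 of the 14 windows of the members that differed. The longer palindrome TAATTA was in 11 of the 157 (7.01%) against 5.29% of all windows, and in 0 of 14 windows of the members that differed. A match of letters is a description of the window and does not show that a protein binds there.

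Of the 222 members, 13 differed between genotypes at an FDR under 0.1 with edgeR's quasi-likelihood test, which was fitted on all 21664 genes. Lower in *Lmx1a-/-* CH were *Tnn*, *Pigc*, *F5*, *Ccdc190*, *Ddr2*, *Gm7694* and *Nos1ap*, and the 6 higher genes included *Astn1*, *Pappa2*, *Gas5* and *Gm20471*. The 13 are 5.86% of the members, against a background of 4.02% of all genes tested and 5.49% of the 1312 genes tested on the rest of chromosome 1. The share near *Lmx1a* was thus close to that of the chromosome as a whole. By direction, 7 members were lower and 6 were higher, where 2.29% of all genes were lower and 1.72% were higher.

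**Figure D1:**
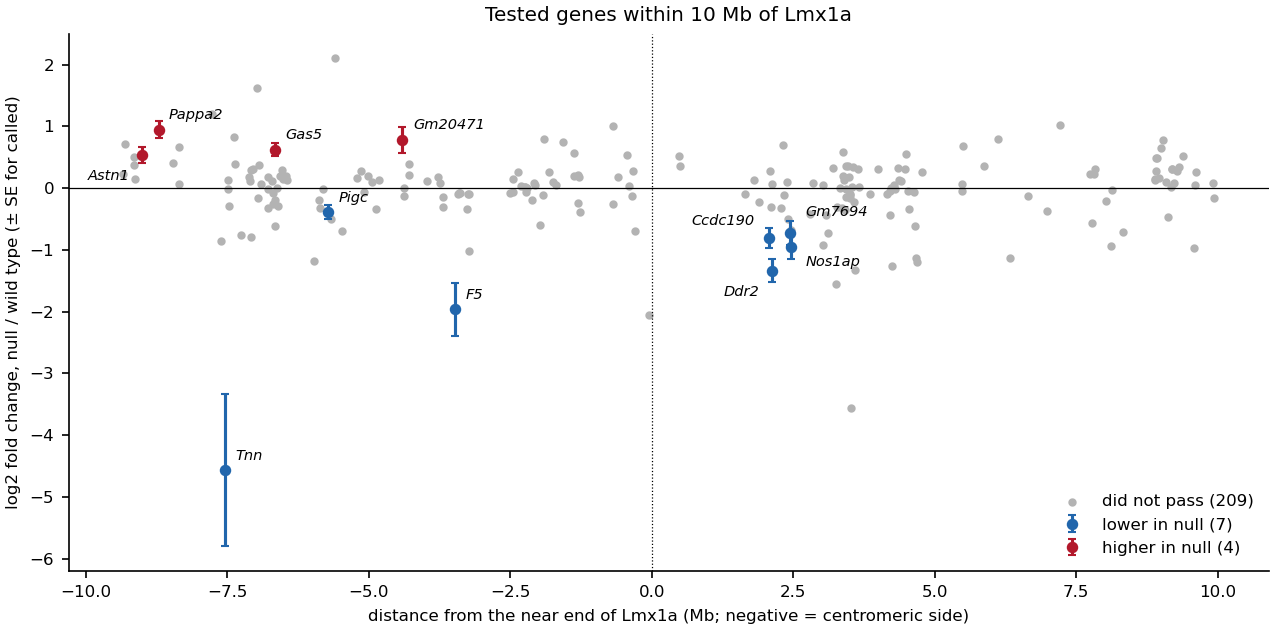
Log2 fold change (null / wild type) of 220 tested genes against their distance in Mb from the near end of *Lmx1a*, with gray points for the 209 that did not pass and blue or red points with SE bars for 7 lower and 4 higher genes. Lower and higher genes both occur on the centromeric side, 4 of the 7 lower genes stand together from 2.08 to 2.45 Mb, and *Tnn* has the widest error bar.

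Most differences were small. The median log2 fold change of the members was 0.045, against -0.0049 over all genes and 0.030 over the rest of chromosome 1, with 122 members above 0 and 100 below it. For 162 of the 222 the log2 fold change was smaller than 0.5 in size. Libraries of the genotypes did not overlap for 12 members (5.41%), 5 lower and 7 higher, where 4.44% of all genes tested showed no overlap (2.27% lower and 2.17% higher). An unadjusted p under 0.05 was found for 49 members (22.1%, against 16.4% of all genes tested). Among protein-coding members 11 of 139 passed (7.91%, against 4.82% of all protein-coding genes), and among the others 2 of 83 (2.41%, against 2.34%).

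The genes next to *Lmx1a* did not pass the threshold on the centromeric side. The nearest, *Rxrg*, which encodes the retinoid X receptor gamma, lies 0.050 Mb away at chr1:167598384-167639623. It had few counts, at 0.747, 0.992, 0.412, 0.830 and 0.628 CPM in the wild type and at 0.199, 0.217, 0.375, 0 and 0.070 CPM in mutants. All 5 mutant libraries lay below all wild-type libraries, but the log2 fold change of -2.06 had an SE of 0.73 and did not pass (edgeR quasi-likelihood FDR = 0.176). It passed with the likelihood ratio test (FDR = 0.0478) and with edgeR's newer quasi-likelihood method (FDR = 0.0565), but not without the filter on low counts (FDR = 0.231) or with the embryo number as a block (FDR = 0.265), and DESeq2 gave it no adjusted p. *Rxrg* had entered the test through the wild-type libraries only, where it was high, so its lack of overlap and its direction are descriptions. Next to it, *Mgst3*, a microsomal glutathione transferase gene, was at 4.81 ± 1.66 and 2.98 ± 1.54 CPM (mean ± SD, n = 5). The aldehyde dehydrogenase gene *Aldh9a1* was at 23.8 ± 4.75 and 28.8 ± 1.74 CPM, *Tmco1*, for a calcium channel of the endoplasmic reticulum, at 29.9 ± 1.24 and 27.5 ± 4.52 CPM, and the uridine-cytidine kinase gene *Uck2* at 55.5 ± 2.73 and 56.8 ± 4.69 CPM. None of these 4 passed (edgeR quasi-likelihood FDR between 0.336 and 0.893).

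On the telomeric side *Nuf2*, a kinetochore gene 1.65 Mb from *Lmx1a*, was at 76.1 ± 5.61 and 71.5 ± 6.92 CPM, and *Rgs5*, for a regulator of G protein signaling, at 10.5 ± 7.07 and 11.5 ± 6.90 CPM (mean ± SD, n = 5). Neither passed (edgeR quasi-likelihood FDR = 0.661 and 0.925). Across the interval, 39 members lie inside another member on the same strand, 31 of them TEC models. The log2 fold change of 32 of them had the sign of the host gene, and reads of unspliced host RNA cannot be told apart from those of the gene inside it.

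From 2.08 to 2.45 Mb on the telomeric side, 4 of the 7 lower genes lay within 661.214 kb (chr1:169928648-170589861). The smallest p among them was that of *Ddr2* (ENSMUSG00000026674, chr1:169972307-170110762, minus strand), a receptor tyrosine kinase that collagen activates. *Ddr2* was at 51.7, 66.2, 71.9, 56.7 and 39.3 CPM in the wild type and at 25.0, 14.9, 28.0, 21.6 and 23.6 CPM in mutants. The lowest wild-type library stood 11.4 CPM above the highest mutant library. Its mean fell from 57.2 ± 12.7 to 22.6 ± 4.90 CPM (mean ± SD, n = 5), or -1.33 in log2 units with an SE of 0.18 (FDR = 0.00202 by edgeR quasi-likelihood), the smallest FDR of any member. It passed whichever embryo was left out, with log2 fold changes from -1.45 to -1.22. Connective tissue cells are a known source of *Ddr2*, and the 5 mesenchyme and meninges markers summed to 193.2 to 620.1 CPM in wild-type CH and 170.6 to 340.3 CPM in *Lmx1a-/-* CH. Of these markers *Dcn* was lower, and *Pdgfrb*, which did not pass, was at 27.2 to 32.3 and 16.4 to 27.0 CPM. *Col1a1*, *Col1a2* and *Foxc1* overlapped between genotypes and did not pass, with log2 fold changes of -0.60, -0.37 and 0.046. Their part in the fall of *Ddr2* was not tested, and in pooled tissue fewer cells of a type and less RNA per cell cannot be told apart.

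*Nos1ap* (ENSMUSG00000038473, chr1:170302668-170589861, minus strand) encodes an adaptor protein of neuronal nitric oxide synthase. It was at 35.2, 32.0, 18.7, 24.3 and 31.2 CPM in the wild type and at 15.9, 16.2, 17.3, 14.2 and 9.46 CPM in mutants. The groups did not overlap, but wild-type embryo 3 stood only 1.38 CPM above the highest mutant. This made a log2 fold change of -0.95 with an SE of 0.19 (FDR = 0.0219 by edgeR quasi-likelihood), and *Nos1ap* passed in all 10 fits that left out an embryo. *Gm7694*, which shares 171 exon bases with the end of *Nos1ap* on the same strand, was at 39.1, 38.1, 19.9, 24.4 and 43.5 CPM in the wild type and at 19.0, 15.3, 22.4, 20.9 and 22.2 CPM in mutants. Wild-type embryo 3 lay within the mutant range. In log2 units the difference was -0.72 with an SE of 0.20 (FDR = 0.0834 by edgeR quasi-likelihood), and it passed in 3 of the 10 fits, those without wild-type embryo 3 or 4 or mutant embryo 3. How the counting split reads between the overlapping genes is uncertain. Wild-type embryo 3 was also the lowest of its group for *Ttr* and for the sums of choroid plexus, CH (1565 CPM) and CR markers (260.6 CPM). It was the highest of its group for the sums of cortical neuroepithelium (645.8 CPM), neuron (567.4 CPM) and mesenchyme and meninges markers (620.1 CPM). The part of these cells in the levels of *Nos1ap* and *Gm7694* was not tested.

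*Ccdc190* (ENSMUSG00000070532, chr1:169928648-169934653, plus strand) was at 11.4, 12.0, 9.53, 11.9 and 13.2 CPM in the wild type and at 6.98, 5.43, 8.24, 6.76 and 5.84 CPM in mutants. The groups did not overlap, and the difference came to -0.80 in log2 units with an SE of 0.16 (FDR = 0.0208 by edgeR quasi-likelihood). It shares 621 of its 1734 exon bases with *Gm15852* on the opposite strand. That gene had a log2 fold change of 0.28 (SE 0.72) and did not pass, but the strand setting of the counting is not given in the sources used here, so the counts of the pair are uncertain.

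The stretch from *Ccdc190* to *Nos1ap* was singled out after its values were seen, and no test was made of it. It holds 13 tested members, of which 9 had a log2 fold change below 0, with a median of -0.32, and 6 had an unadjusted p under 0.05. Of its 9 protein-coding genes 8 were below 0. Those that did not pass included *Uap1*, for an enzyme that makes the donor sugar of N-acetylglucosamine, at -0.32 (SE 0.12), *Hsd17b7*, for a steroid and cholesterol synthesis enzyme, at -0.31 (SE 0.12), and the kinase gene *Uhmk1* at -0.10 (SE 0.089). *Sh2d1b2* was above 0, at 0.11 (SE 0.77).

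**Figure D2:**
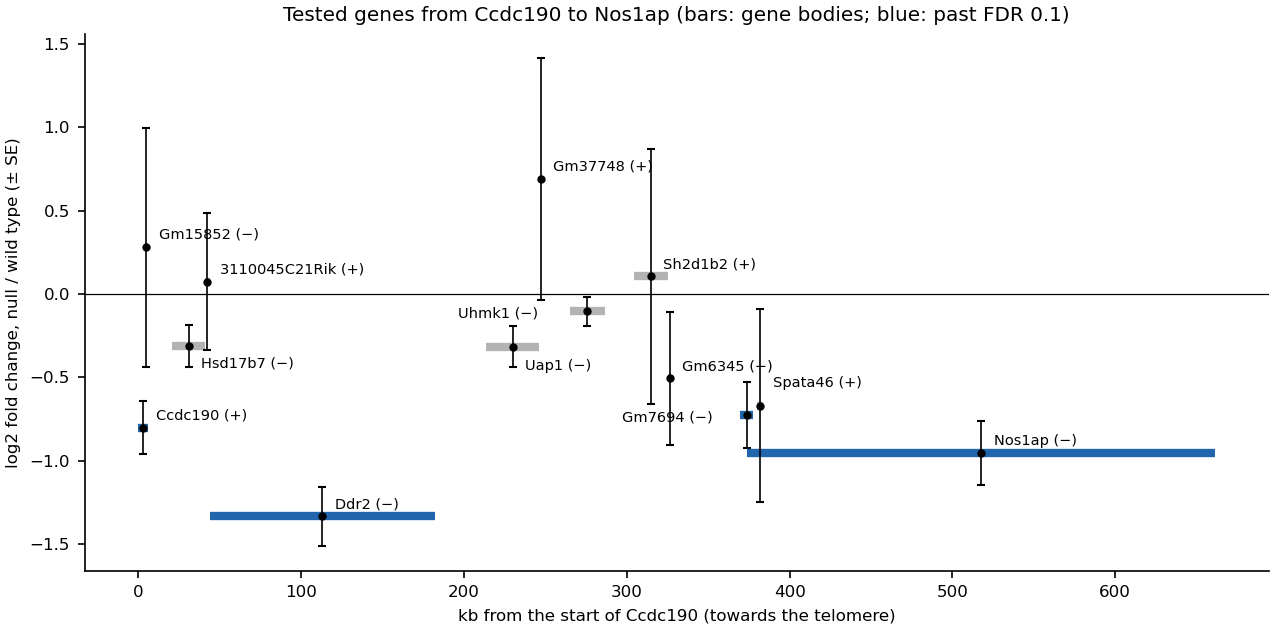
Log2 fold change (null / wild type, points with SE bars) of the 13 tested genes from *Ccdc190* to *Nos1ap* against position in kb, with the gene body as a horizontal bar, blue for genes past an FDR of 0.1 and gray for the others. *Ccdc190*, *Ddr2*, *Gm7694* and *Nos1ap* lie between -1.33 and -0.72, and the error bars of the 4 genes above 0 all cross it.

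On the centromeric side the member nearest to *Lmx1a* that passed was *F5* (ENSMUSG00000026579, chr1:164151838-164220277, plus strand), 3.47 Mb away, which encodes coagulation factor V. *F5* was at 5.41, 3.43, 2.27, 2.698 and 6.94 CPM in the wild type and at 1.76, 0.380, 1.23, 1.25 and 0.626 CPM in mutants. The groups did not overlap, and wild-type embryos 3 and 4 were the lowest of their group. In the mean log2 level of the 12 listed choroid plexus markers embryo 3 was the lowest of its group, at 2.319. On that measure embryo 4, at 3.425, was above wild-type embryos 1 and 2 (3.340 and 3.404). In the sum over the 11 tested markers embryos 3 and 4 were the lowest of their group, at 142.6 and 332.4 CPM. They were also the lowest for *Ttr*, at 5.74 and 21.3 CPM. The part of choroid plexus cells in the fall of *F5* was not tested. The mean of *F5* fell from 4.15 ± 1.97 to 1.05 ± 0.549 CPM (mean ± SD, n = 5), or -1.96 in log2 units with an SE of 0.43 (FDR = 0.0324 by edgeR quasi-likelihood). *F5* shares 262 exon bases with a gene on the opposite strand. With the mean of the choroid plexus markers as a covariate the log2 fold change was -0.91 and did not pass (edgeR quasi-likelihood FDR = 0.866).

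*Gm20471* (ENSMUSG00000092188, chr1:163280356-163287045, plus strand) is an antisense gene within *Prrx1*. It was at 2.20, 1.76, 2.85, 2.39 and 2.36 CPM in the wild type and at 3.92, 3.91, 4.46, 4.27 and 3.37 CPM in mutants, without overlap. This made a log2 fold change of 0.78 with an SE of 0.21 (FDR = 0.0811 by edgeR quasi-likelihood), and it passed in 1 of the 10 fits that left out an embryo, that without wild-type embryo 3. *Prrx1*, a homeobox gene of mesenchyme, was at 80.5 ± 34.3 and 73.3 ± 21.4 CPM (mean ± SD, n = 5) and did not pass. Without the strand setting the reads of the antisense gene and those of unspliced *Prrx1* RNA cannot be told apart.

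*Pigc* (ENSMUSG00000026698, chr1:161969186-161973435, plus strand) encodes a subunit of the enzyme that starts the synthesis of GPI anchors. It was at 29.3, 28.1, 23.3, 28.9 and 26.2 CPM in the wild type and at 19.3, 20.1, 24.8, 20.9 and 18.5 CPM in mutants. Wild-type embryo 3 and mutant embryo 3 overlapped. In log2 units the difference was -0.39 with an SE of 0.11 (FDR = 0.0913 by edgeR quasi-likelihood), and *Pigc* passed in 2 of the 10 fits that left out an embryo, those without wild-type embryo 3 or mutant embryo 3.

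*Gas5* (ENSMUSG00000053332, chr1:161034422-161038539, plus strand) is a noncoding gene whose introns hold small nucleolar RNAs. It was at 211.5, 196, 162, 152 and 178 CPM in the wild type and at 316.5, 285.5, 280.2, 259.7 and 246 CPM in mutants. Every mutant library lay above every wild-type library. The mean rose from 180.0 ± 24.2 to 277.5 ± 27.0 CPM (mean ± SD, n = 5), or 0.62 in log2 units with an SE of 0.099 (FDR = 0.00522 by edgeR quasi-likelihood). *Zbtb37*, which overlaps *Gas5* on the opposite strand without shared exon bases, was at 99.2 ± 9.71 and 86.6 ± 7.21 CPM and did not pass (edgeR quasi-likelihood FDR = 0.285).

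The region from 7.5 to 10 Mb on the centromeric side held 3 of the 13. *Pappa2* (ENSMUSG00000073530, chr1:158711727-158980490, minus strand) encodes a protease that cuts IGF-binding proteins and so frees insulin-like growth factors. *Pappa2* was at 26.6, 20.9, 25.6, 17.9 and 25.7 CPM in the wild type and at 38.1, 42.9, 43.0, 44.9 and 56.7 CPM in mutants. The lowest mutant stood 11.5 CPM above the highest wild-type library. The mean rose from 23.4 ± 3.79 to 45.1 ± 6.94 CPM (mean ± SD, n = 5), or 0.95 in log2 units with an SE of 0.13 (FDR = 0.00273 by edgeR quasi-likelihood), and it passed whichever embryo was left out, from 0.86 to 1.00.

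*Astn1* (ENSMUSG00000026587, chr1:158362273-158691781, plus strand), 19.95 kb from *Pappa2*, encodes astrotactin, an adhesion protein that neurons use to migrate along glial fibers. It was at 101.9, 104, 114.5, 69.2 and 112 CPM in the wild type and at 140.5, 159, 121, 151 and 154 CPM in mutants. The groups did not overlap, and wild-type embryo 4 lay well below the others. The difference came to 0.53 in log2 units with an SE of 0.13 (FDR = 0.0452 by edgeR quasi-likelihood). *Astn1* passed in 7 of the 10 fits that left out an embryo, and missed the threshold without mutant embryo 2, 4 or 5 (FDR between 0.101 and 0.11). The 5 markers of cortical neuroepithelium summed to 309.0 to 645.8 CPM in wild-type CH and 565.4 to 784.4 CPM in *Lmx1a-/-* CH. The 4 neuron markers, 0 of which passed, overlapped between genotypes in their sum, at 263.5 to 567.4 and 309 to 598.2 CPM. The part of either list in the higher level of *Astn1* was not tested.

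*Tnn* (ENSMUSG00000026725, chr1:160085029-160153580, minus strand) encodes tenascin N, a matrix protein. It rested on few reads, with 5, 48, 26, 148 and 1 counts in wild-type embryos and 0, 0, 4, 8 and 1 in mutants. Wild-type embryos 1 and 5 lay within the mutant range, and wild-type embryo 4 held most of the counts. This made a log2 fold change of -4.57 with an SE of 1.23 (FDR = 0.0770 by edgeR quasi-likelihood), and *Tnn* passed in 2 of the 10 fits, those without wild-type embryo 1 or 5. Without wild-type embryo 2, 3 or 4 the gene fell under the filter on low counts, and of the 13 it alone had entered the test through the wild-type libraries only. Of all members, 200 passed the filter in each genotype alone, 9 through wild-type libraries only, 7 through mutant libraries only and 6 only over both.

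**Figure D3:**
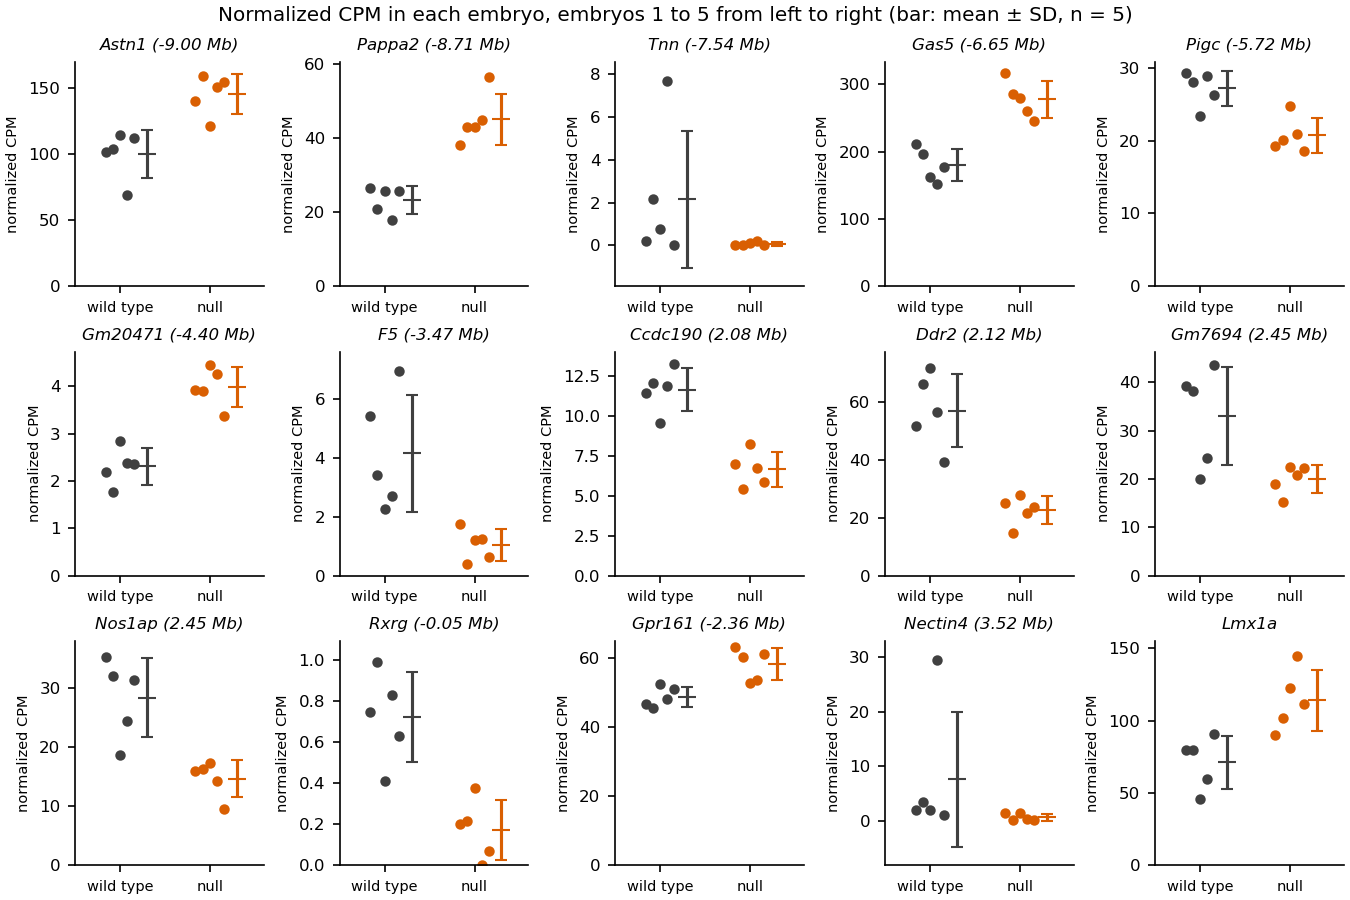
Normalized CPM of 11 genes that passed, of *Rxrg*, *Gpr161* and *Nectin4*, which did not, and of *Lmx1a* in each embryo, with wild-type embryos in gray and null embryos in orange, 1 to 5 from left to right, and the mean ± SD (n = 5) beside them. The groups are apart for 8 of the 11 and overlap for *Tnn*, *Pigc* and *Gm7694*.

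One further gene without overlap did not pass. *Gpr161*, for a receptor in cilia that restrains hedgehog signaling, was at 46.6, 45.5, 52.4, 48.3 and 51.0 CPM in the wild type and at 63.2, 60.3, 52.9, 53.6 and 61.2 CPM in mutants. In log2 units the difference was 0.26 with an SE of 0.082 (FDR = 0.135 by edgeR quasi-likelihood). *Nectin4*, a nectin of epithelia named here after its values were seen, had the log2 fold change farthest from 0 among the members that did not pass with all 10 libraries, -3.56 (SE 1.05, edgeR quasi-likelihood FDR = 0.107). Without wild-type embryo 4 it was -1.71 (edgeR quasi-likelihood FDR = 0.353), nearer to 0 than the -2.01 of *Rxrg* in that fit, and it passed without wild-type embryo 3 or 5 (FDR = 0.0815 and 0.0854). It was at 29.5 CPM in wild-type embryo 4, between 0.997 and 3.34 CPM in the other wild-type embryos and between 0.035 and 1.36 CPM in mutants.

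Gene families of the interval were described from lists of members. Among 10 tested transcription factor genes the median log2 fold change was 0.047. *Pogk*, which did not pass, was at 181.5 ± 14.2 and 204.7 ± 12.2 CPM (mean ± SD, n = 5). Among 15 genes of neuronal surface, adhesion and polarity, *Ddr2* and *Nos1ap* fell and *Astn1* rose, with a median of -0.067. *Atp1b1*, for a beta subunit of the sodium pump, was at 8.44 ± 2.27 and 7.95 ± 3.23 CPM and did not pass. The potassium channel genes *Kcnj9* and *Kcnj10* had log2 fold changes of 0.31 (SE 0.54) and 0.55 (SE 0.37) and did not pass.

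A list of 10 genes, most of them for mitochondrial proteins, had no member that passed. It also holds *Mgst3*, *Cacybp* and *Prdx6*, whose proteins act mainly elsewhere in the cell. The nearest to the threshold was *Sdhc*, for a subunit of succinate dehydrogenase, at 65.9 ± 4.72 and 53.4 ± 6.504 CPM (mean ± SD, n = 5), or -0.30 in log2 units with an SE of 0.095 (FDR = 0.126 by edgeR quasi-likelihood). The fumarase gene *Fh1* had a log2 fold change of 0.22 (SE 0.11). None of 10 trafficking genes passed, among them *Klhl20*, *Gorab* and *Kifap3* with log2 fold changes of 0.17 to 0.21. Of 10 genes in a mixed list of kinases, phosphatase family members, metabolic enzymes and a signaling adaptor *Pigc* alone passed, and *Pea15a*, for a phosphoprotein that binds ERK, was at 131.2 ± 22.8 and 164.7 ± 10.5 CPM (edgeR quasi-likelihood FDR = 0.161).

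The immune clusters of the telomeric side gave few counts. Of 13 counted interferon-inducible genes of the p200 family, 3 were tested, of 9 Slam family genes 1 and of 8 Fc receptor genes 3, and none passed. *Aim2*, a sensor of DNA in the cytosol, was at 3.26 ± 0.835 and 5.22 ± 2.39 CPM, or 0.68 in log2 units with an SE of 0.30 (FDR = 0.276 by edgeR quasi-likelihood). *Fcer1g* was at 1.85 ± 0.652 and 2.77 ± 1.01 CPM and *Cd84* at 1.26 ± 0.496 and 1.56 ± 0.972 CPM, while the 4 microglia markers summed to 6.97 to 17.4 CPM in wild-type CH and 7.01 to 13.8 CPM in *Lmx1a-/-* CH. *Fcgr2b*, *Ifi202b*, *Fmo4* and *Rgs4* had means between 0.225 and 0.951 CPM. The flavin monooxygenase gene *Fmo1* was at 8.20 ± 3.26 and 8.99 ± 2.44 CPM, and *Rgs7* at 1.03 ± 0.369 and 2.10 ± 0.955 CPM (edgeR quasi-likelihood FDR = 0.199). Of the 246 genes in the table that were not tested, 110 had no count in any library. They include all 26 olfactory receptor genes and all 17 snoRNA genes of the interval.

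Levels of genes can be compared per kb of exon. On this scale *Gas5* was at 47.9 CPM per kb in wild-type and 73.8 in *Lmx1a-/-* CH and *Astn1* at 10.2 and 14.8 CPM per kb. *Ddr2* was at 6.17 and 2.44 CPM per kb and *Nos1ap* at 3.90 and 2.02. *Pappa2* (2.27 and 4.38) was below both genes in wild-type CH and above both in *Lmx1a-/-* CH. *F5* and *Tnn* were the lowest of those that passed, at 0.559 and 0.373 CPM per kb in wild-type CH. *Lmx1a* itself was at 20.95 and 33.6 CPM per kb.

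By distance, in the first 2.5 Mb on the telomeric side 5 of 19 members passed (26.3%), in the next 2.5 Mb 1 of 53 and beyond 5 Mb 0 of 39. Beside these stand 4.02% of all genes tested and 5.49% of those on the rest of chromosome 1. Of the 5, 4 lie in the stretch from *Ccdc190* to *Nos1ap*, singled out after its values were seen, and *Gm7694* and *Nos1ap* overlap. On the centromeric side 0 of 34 passed in the first 2.5 Mb, 2 of 21 in the second, 2 of 43 in the third and 3 of 13 (23.1%) in the outermost. The sides held 7 and 6 of the 13, from 111 tested members each. Within 5 Mb of *Lmx1a* 8 of 127 genes passed (6.30%), and within 20 Mb 21 of 412 (5.10%).

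Along the rest of chromosome 1, in bins of 10 Mb counted from *Lmx1a*, the share of genes that passed lay between 0 and 12.1%. The bins that touch *Lmx1a* stood at 6.31% (centromeric) and 5.41% (telomeric). The highest shares were far from it, with 8 of 66 genes at 140 to 150 Mb and 8 of 73 at 130 to 140 Mb on the centromeric side.

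**Figure D4:**
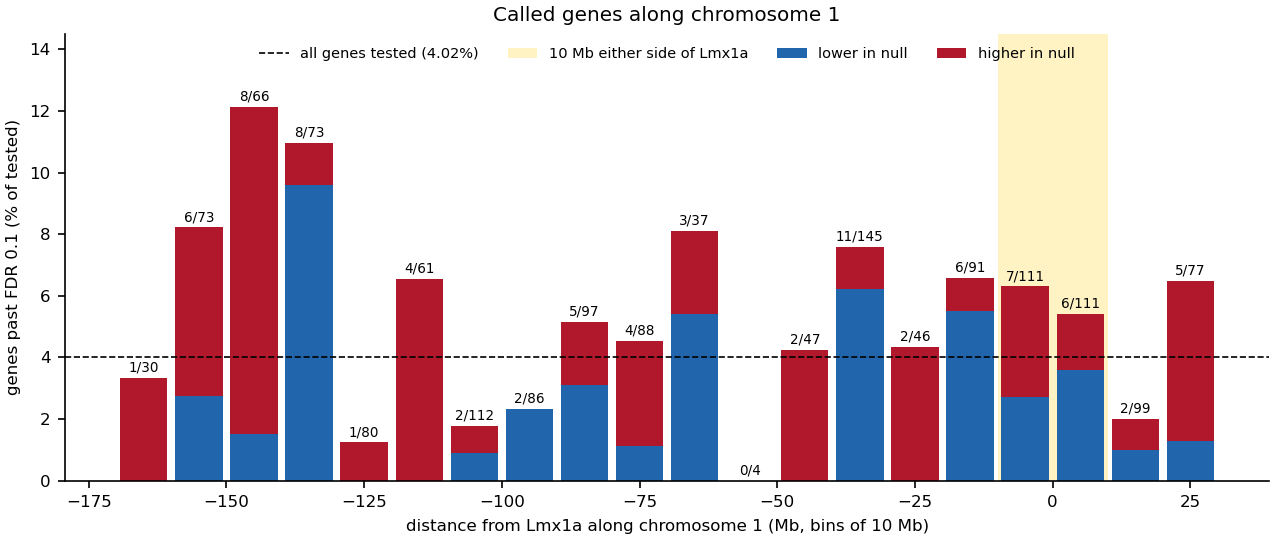
Share of tested genes past an FDR of 0.1 in bins of 10 Mb along chromosome 1 against distance from *Lmx1a*, split into lower (blue) and higher (red) in null CH, with passed and tested genes above each bar. The bins beside *Lmx1a* (shaded, 7/111 and 6/111) lie above the 4.02% of all genes (dashed line) and below the bins at 130 to 150 Mb.

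The differences were also fitted with other libraries and with covariates. Wild-type embryo 1 was the sole wild-type embryo with next to no *Xist*, and a fit of that embryo and the 5 mutants alone was a choice made after seeing the data. Its wild-type group is 1 library, assumed to vary like the mutants, so edgeR's quasi-likelihood test had little power there. None of the members passed (31 had an unadjusted p under 0.05), as against 0.642% of all genes tested, which says little about any member. The log2 fold changes in that fit were -1.19 for *Ddr2*, -1.27 for *Nos1ap*, 0.76 for *Pappa2* and 0.39 for *Gas5*. Embryo 1 had a share in choosing these genes, so the values are descriptions and no check on *Xist*.

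With the *Xist* level as a covariate in all 10 libraries none of the members passed (25 with an unadjusted p under 0.05), nor did they with the choroid plexus markers as a covariate (12). In those fits 0.125% and 0.0969% of all genes passed. The log2 fold change of *Ddr2* was -1.11 with *Xist* and -1.39 with the choroid plexus markers, and that of *Pappa2* was 0.78 and 0.88. Other values moved farther. With the choroid plexus markers *Astn1* went from 0.53 to 0.26, *Ccdc190* from -0.80 to -0.40, *Nos1ap* from -0.95 to -0.52, *Pigc* from -0.39 to -0.14, *F5* from -1.96 to -0.91 and *Tnn* from -4.57 to -2.79 in log2 units. With *Xist* the log2 fold change of *Tnn* went to -0.89 and that of *Gas5* from 0.62 to 0.37. For *Gm7694* the choroid plexus covariate turned the direction, to 0.075. The choroid plexus covariate was the mean log2 level of the 12 listed markers, of which *Kl* was under the filter on low counts. This mean was 2.32 to 3.44 in wild-type and 1.73 to 2.53 in *Lmx1a-/-* CH. Both covariates thus nearly follow genotype, and their share in the differences cannot be told apart from that of genotype.

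**Figure D5:**
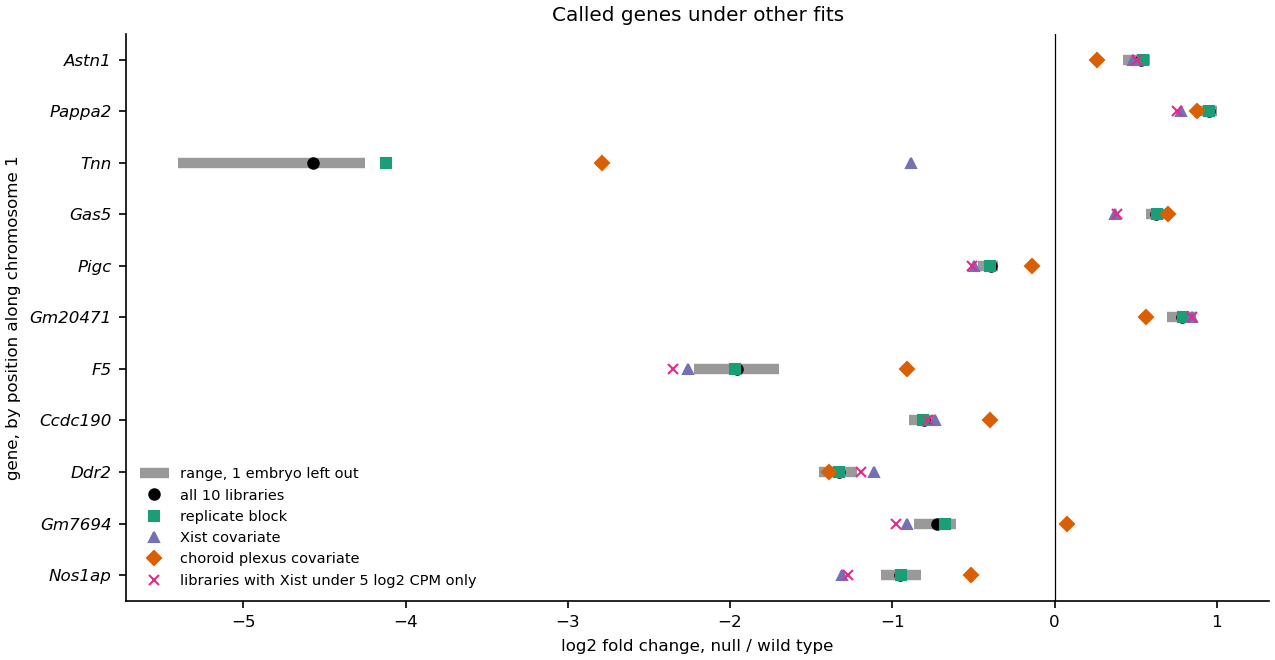
Log2 fold change (null / wild type) of 11 genes that passed, from the fit of all 10 libraries, with the replicate number as a block, with *Xist* or the choroid plexus markers as a covariate, and in the 6 libraries with next to no *Xist*, over gray bars for the range when 1 embryo was left out. *Ddr2* stays between -1.45 and -1.11 and *Pappa2* between 0.76 and 1.00, while *Gm7694* crosses 0 with the choroid plexus covariate.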

How the data were processed

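Laser-captured CH of e13.5 embryos was sequenced, from 5 wild-type and 5 *Lmx1a-/-* embryos, grouped and numbered by the labels. Per the methods and the processing notes, the authors used Trimmomatic on paired reads, STAR 2.7.1a for alignment to GRCm38 and HTSeq 0.11.2 with Ensembl 102 genes, and deposited unnormalized read counts per gene. The strand setting is not given in the sources used here. The table has 52508 rows, of which 281 exact repeats were dropped, and library totals of 19145952 to 36462780 counts. Replicates are separate embryos.

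Positions come from GENCODE M21. The test took genes that reached 10 counts in 3 or more libraries (R 4.3.3, edgeR 4.0.16) after TMM scaling, with a trended dispersion, the quasi-likelihood test and Benjamini-Hochberg adjustment over all 21664 genes, at an FDR under 0.1. The SE is the log2 fold change divided by the square root of F. The script was tested on simulated data. Members and lists were chosen with earlier results of these data known. Named genes are all members past the threshold, the 5 nearest on each side, up to 10 others without overlap, up to 3 per family list by p, *Lmx1a* and *Xist*. Genes that overlap those past the threshold, *Nectin4* and the stretch around *Ddr2* fall outside this rule and were chosen after their values were seen. Some members that the rule names are not reported here. Promoter windows are RefSeq's.

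The alternatives were the likelihood ratio test, DESeq2 1.42.0, RLE or library-size scaling, other filters, the newer dispersion method, a block for the embryo number, *Xist* or choroid plexus covariates, an FDR of 0.05, other intervals, members without opposite-strand overlap, and each embryo left out. The fit of the libraries with next to no *Xist* was added after seeing the data. Same-numbered embryos did not deviate together (correlations of -0.099 to 0.013), so the numbers do not pair them.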

Additional observations from a re-analysis of the deposited data

Results flagged for a closer look

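In 4 of 92 groups of 5 embryos, over the named genes in each genotype, 1 embryo stood apart from the rest by Dixon's criterion, where chance alone gives about 1 in 20. *Astn1* was at 69.2 CPM in wild-type embryo 4 and at 101.9 to 114.5 CPM in the other wild-type embryos. *Tnn* was at 7.68 CPM in wild-type embryo 4 and at 0.0369 to 2.16 CPM in the others. *Mgst3* was also at 7.68 CPM in wild-type embryo 4, against 3.70 to 4.82 CPM in the others. *Ifi202b* was at 1.18 CPM in *Lmx1a-/-* embryo 5 and at 0.133 to 0.341 CPM in the other mutants. Wild-type embryo 4 thus accounts for 3 of the 4, and without it *Astn1* had a log2 fold change of 0.42 and still passed (edgeR quasi-likelihood FDR = 0.0309), whereas *Tnn* fell under the filter on low counts.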

How the results depend on the processing

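The 13 members past the threshold (7 lower, 6 higher) became 17 with the likelihood ratio test (11 lower), where 6.28% of all genes passed in place of 4.02%, 24 with DESeq2 (12 lower, 12 higher), where 8.15% passed, 8 at an FDR of 0.05 (4 lower), 8 within 5 Mb (3 higher) and 21 within 20 Mb (13 lower). Without members that overlap the opposite strand 4 lower genes were left. With the *Xist* covariate, with the choroid plexus covariate and among the libraries with next to no *Xist* the counts were 0, 0 lower and 0 higher, the last in a fit with 1 wild-type library and little power. Leaving out 1 embryo gave 7 to 15 members, 4 to 8 lower and 3 to 7 higher, with 7 without *Lmx1a-/-* embryo 2, 4 or 5 and 8 without wild-type embryo 2. The share of all genes that passed also varied over those fits, from 2.11% without *Lmx1a-/-* embryo 4 to 4.96% without *Lmx1a-/-* embryo 3. Other scalings and filters gave 12 or 13.

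The replicate block used embryo numbers that were not taken as pairs. It gave 9 members and 601 of all genes in place of 870, and moved *Rgs4* to 0.118. The median log2 fold change of the members was 0.0012 with the choroid plexus covariate and 0.0195 to 0.0529 with 1 embryo left out. *Astn1*, *Pappa2*, *Gas5*, *F5*, *Ccdc190*, *Ddr2* and *Nos1ap* passed under every scaling, filter and test and with the block. Over the 10 fits without 1 embryo, *Pappa2*, *Gas5*, *F5*, *Ccdc190*, *Ddr2* and *Nos1ap* always passed.

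Of the genes named next, *Gm7694* alone had passed in the fit of all 10 libraries. These log2 fold changes turned sign, none of them past the threshold in the fit that turned them and the cause not tested. With the *Xist* covariate they were -0.491 for *Fmo1*, -0.0142 for *Uck2*, -0.662 for *Rgs5*, -0.616 for *Fcgr3*, -0.175 for *Cd84* and -0.0339 for *Ifi207*. With the choroid plexus covariate they were 0.0746 for *Gm7694*, -0.0227 for *Fmo1*, -0.0261 for *Kifap3*, -0.0595 for *Uck2*, -0.529 for *Rgs5*, -0.358 for *Kcnj9* and -0.546 for *Kcnj10*. Among the libraries with next to no *Xist* they were -0.511 for *Fmo1*, -0.00802 for *Uck2*, -0.697 for *Rgs5*, -0.579 for *Fcgr3*, -0.196 for *Cd84*, -0.0186 for *Kcnj9* and -0.317 for *Ifi207*. With 1 embryo left out the ranges crossed 0 for *Fmo4* (-0.781 to 0.00665), *Fmo1* (-0.0401 to 0.347), *Atp1b1* (-0.327 to 0.0752), *Uck2* (-0.00435 to 0.0704), *Rgs5* (-0.284 to 0.443), *Rgs4* (-0.479 to 0.293), *Cd84* (-0.0885 to 0.504), *Ifi207* (-0.487 to 0.790) and *Ifi202b* (-0.0706 to 1.19).

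Depth limits the low genes. *Rxrg*, *Tnn* and the immune genes rest on few counts, and the share of counting errors in their spread was not measured. For *Tnn* the 1 to 148 counts of wild-type embryos spread well beyond counting errors.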
